A study of Mus musculus with 8 samples.

Results

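Vehicle-treated cultures of activated hepatic stellate cells (AHSC) were set beside vehicle-treated, LPS- and ATP-stimulated bone marrow-derived macrophages (BMDM), the cell types in which the study tested the gold compound auranofin. The comparison used the 4 vehicle libraries, 2 for each cell type, of the 8 mouse libraries in the series. The AHSC cultures came from C57BL/6 mouse liver by density gradient and were activated on uncoated plastic in serum, and they had received vehicle for 12 h without LPS or ATP. The BMDM came from bone marrow of 8-week-old C57BL/6 mice grown in M-CSF for 7 days, then given 100 ng/mL LPS for 4 h and 1 mM ATP for 1 h with vehicle. The labels give no transgene or deletion for either group. Nothing in the labels says that the libraries of a pair came from separate cultures, so the spread between them may be technical. A density gradient enriches stellate cells without removing every other liver cell, so markers of those cells were read beside the stellate genes. The study examined the NLRP3 inflammasome, system Xc and thioredoxin reductase in both cell types. By protein it reported both to lack thioredoxin reductase. It also reported that an inhibitor of this enzyme, unlike auranofin, left interleukin-1β secretion by primed BMDM in place. From both results it proposes that this enzyme is not the primary target for inflammasome inhibition.

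A quiescent stellate cell stores vitamin A in the space between hepatocytes and sinusoidal endothelium, and on activation it becomes a contractile, collagen-secreting myofibroblast. A macrophage that meets LPS through Toll-like receptor 4 switches on NF-κB target genes and, through interferon-β, interferon-stimulated genes. This priming raises NLRP3 and the interleukin-1β precursor, and extracellular ATP then triggers assembly of the inflammasome, in which caspase-1 cleaves interleukin-1β and gasdermin D.

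The deposited values are FPKM, fragments scaled to transcript length and to library size, in 1 table for each cell type. The tables hold 18645 and 17408 genes, of which 16671 were joined on the gene identifier, and 12271 whose mean reached 1 FPKM in either pair were kept. The highest pair mean left out was 0.998 FPKM and the lowest kept was 1.00 FPKM. Cell type, stimulation, culture and table coincide and cannot be told apart, and the tables were normalized separately, so no test was run between them. A gene was called higher in a cell type when, on log2(FPKM + 1), its lower library lay at least 3 (8-fold) above the higher library of the other pair. Depths estimated from the smallest FPKM steps were 31500000 and 33000000 fragments in AHSC, and 29800000 and 27500000 in BMDM. Among genes at 5 FPKM or more, 48 of 8791 (0.546%) differed by over 1.5-fold between the AHSC libraries and 49 of 5755 (0.851%) between the BMDM libraries. These spreads are small beside the 8-fold gap.

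By this rule 795 genes (6.48% of those kept) were higher in AHSC and 304 (2.48%) were higher in BMDM, while 11172 were not called. The pairs did not overlap in most genes: the AHSC libraries lay above in 9664 genes (78.8%) and the BMDM libraries in 2279 (18.6%). The median difference over the genes kept was 1.01 on log2(FPKM + 1) toward AHSC, and 0.63 over all genes in both tables, and changes are read against that shift. The scale of the tables sets the balance of the calls. AHSC held 72.3% of the calls on the deposited scale, 37.7% (335 against 553 genes) after centring on the median of all genes, 56.0% after centring on housekeeping genes and 51.9% after quantile normalization. Scaling the libraries to a common total raised the share to 81.7% (1414 against 317 genes), and to 79.7% (1417 against 362) with the 50 highest genes left out of that total. On all 5 other scalings tried, 330 of the 795 AHSC calls and 293 of the 304 BMDM calls stood. A gene near 0 in one pair could enter only through the other pair, so the counts over lists below describe levels and carry no test.

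**Figure D1:**
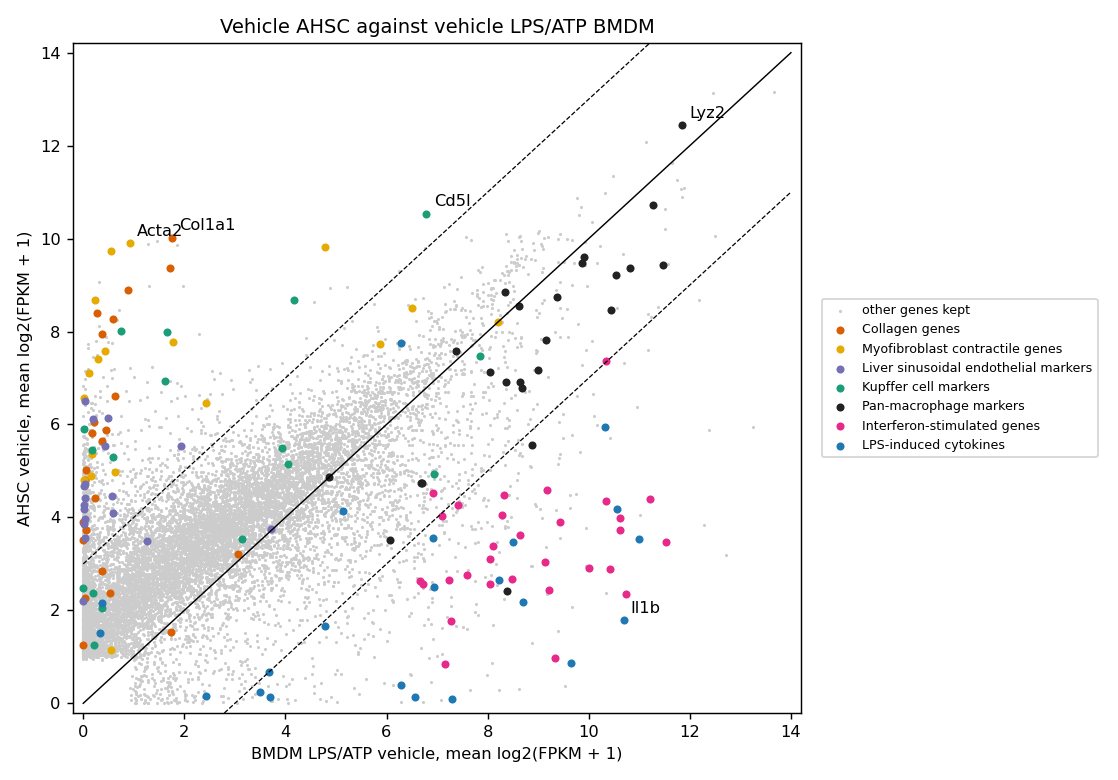
Each point is a gene kept, at its mean log2(FPKM + 1) in the 2 BMDM LPS/ATP vehicle libraries (horizontal) and the 2 AHSC vehicle libraries (vertical), with 7 gene lists in colour. The solid line marks equal values and the dashed lines a difference of 3. Collagen, contractile and endothelial genes line the left edge, cytokine and interferon-stimulated genes fill the lower right, and macrophage markers lie along the diagonal.

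The calls on each side sat at different levels. The 795 genes higher in AHSC had a median of 22.5 FPKM in AHSC, and in 622 of them the BMDM mean was under 1 FPKM. The 304 genes higher in BMDM had a median of 154 FPKM in BMDM, and the AHSC mean was under 1 FPKM in 56 of them and at least 10 FPKM in 106. Thus genes higher in AHSC were mostly near 0 in BMDM, whereas many genes higher in BMDM were also present in AHSC. Called genes held 9.79% of the summed FPKM of the AHSC pair and 26.7% of that of the BMDM pair.

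The 5 marker genes of the comparison split 3 ways. Acta2, which encodes α smooth muscle actin (mm10, chromosome 19, 34240336-34255585), was at 956 and 965 FPKM in AHSC and 0.983 and 0.802 FPKM in BMDM. Col1a1, the α1 chain of type I collagen (chromosome 11, 94936224-94953042), was at 1001 and 1075 FPKM in AHSC and 2.53 and 2.20 FPKM in BMDM. Both were called higher in AHSC, with differences of 8.99 ± 0.07 and 8.27 ± 0.09 (SE, n = 2 libraries a group) on log2(FPKM + 1). Il1b, the precursor of interleukin-1β (chromosome 2, 129364569-129371164), was at 3.57 and 1.64 FPKM in AHSC and 1593 and 1708 FPKM in BMDM, and was called higher in BMDM. Lyz2, the lysozyme gene used as a macrophage marker (chromosome 10, 117277541-117282272), was abundant in both, at 5519 and 5554 FPKM in AHSC and 3743 and 3625 FPKM in BMDM. Its difference of 0.59 ± 0.02 was not called, and it turned to -0.43 after centring on the median of all genes. Lyz1, a near-identical neighbour that could share reads with Lyz2, was at 44.7 and 48.9 FPKM in AHSC and 30.1 and 28.7 FPKM in BMDM. Cd5l, a secreted protein of tissue macrophages (chromosome 3, 87357881-87371074), was at 1474 and 1499 FPKM in AHSC and 111 and 108 FPKM in BMDM. Cd5l was thus called higher in the stellate cultures, although it was not called after centring on the median of all genes.

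**Figure D2:**
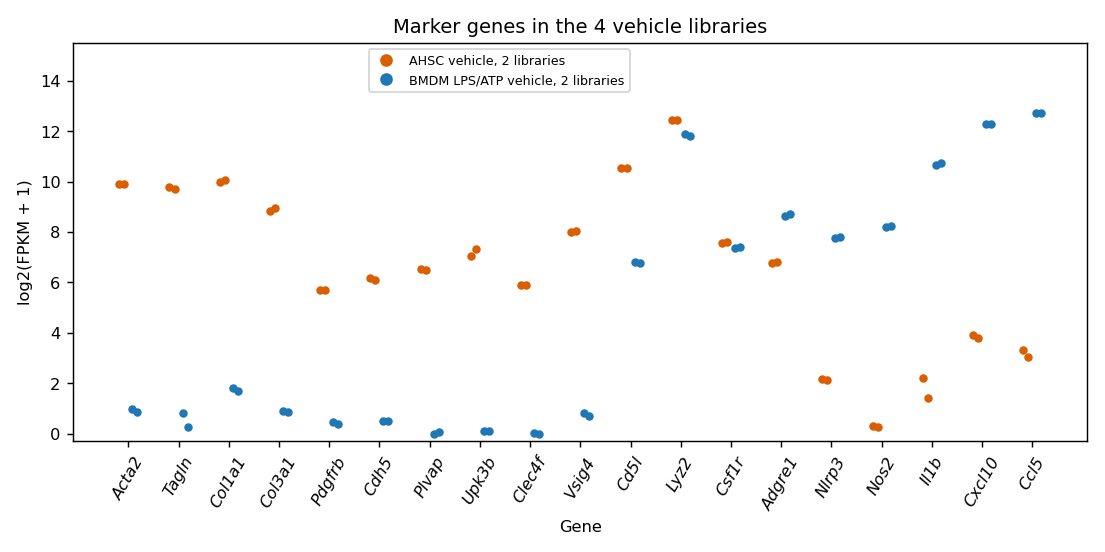
log2(FPKM + 1) of 19 marker genes in each vehicle library, with the AHSC libraries in orange and the BMDM LPS/ATP libraries in blue. The libraries of a pair lie close together, contractile, collagen and endothelial genes are near 0 in BMDM, Lyz2 and Csf1r are high in both, and Il1b, Cxcl10 and Ccl5 are high in BMDM.

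Contractile genes of the myofibroblast stood among the widest differences. Of the 20 listed, 18 were in both tables and kept, 14 were called higher in AHSC and none in BMDM, and the median difference was 5.11. Lmod1 and Ldb3 were listed only in the AHSC table. Tagln, the actin-binding protein transgelin, was at 872 and 832 FPKM in AHSC and 0.776 and 0.205 FPKM in BMDM. Myl9, a regulatory light chain of smooth muscle myosin, was at 414 and 400 FPKM in AHSC and 0.310 and 0.0671 FPKM in BMDM. Tpm2, a tropomyosin, was at 179 and 160 FPKM against 0.324 and 0.120 FPKM, and Cald1 (caldesmon) at 194 and 187 FPKM against 0.352 and 0.341 FPKM. These 4 genes were thus under 1 FPKM in every BMDM library and above 150 FPKM in AHSC. Tpm4, a tropomyosin of non-muscle cells, did not separate the cell types, at 303 and 289 FPKM in AHSC and 298 and 293 FPKM in BMDM. Flna and Actn1, which crosslink actin in most cells, were higher in AHSC without being called, with 355 and 376 FPKM against 86.8 and 91.7 FPKM for Flna.

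Among the genes called higher in AHSC, Myl9 had the widest gap of those whose promoter held a CArG box, the element bound by serum response factor that many smooth muscle genes carry. The sequence below is from RefSeq (GRCm38.p6, chr2:156775214-156775407, plus strand, 194 bases), ends where the annotated gene begins, and has the CArG box in capitals, 161 to 152 bases before the transcript start at 156775464.
Myl9 promoter: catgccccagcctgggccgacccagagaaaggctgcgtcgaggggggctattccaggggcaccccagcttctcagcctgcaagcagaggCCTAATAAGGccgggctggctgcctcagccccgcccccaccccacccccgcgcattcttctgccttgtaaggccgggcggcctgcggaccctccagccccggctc
A CArG box was found in 3 of the 15 contractile genes with a RefSeq promoter, Myl9, Cnn2 and Vcl. Over windows of 250 bases before a transcript start, read on both strands, the box was in 2.83% of 777 windows of genes higher in AHSC, 0.680% of 294 windows of genes higher in BMDM, and 1.47% of all 32851 promoter windows. Among the 12406 windows of all genes kept it was in 1.18%. RefSeq windows were given for 591 of the 795 and 238 of the 304 genes. A match is a description of the letters and not a measured binding site.

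Collagen genes were higher in AHSC across the fibrillar, basement membrane and beaded filament types. Of 31 collagen genes 26 were in both tables and 23 were kept, with 17 called higher in AHSC, none in BMDM and a median difference of 4.97. Col10a1, Col13a1, Col24a1, Col26a1 and Col28a1 were only in the AHSC table, and Col20a1, Col22a1 and Col25a1 were under the minimum. Col1a2, the partner chain of Col1a1, was at 633 and 678 FPKM in AHSC and 2.42 and 2.18 FPKM in BMDM. Col3a1 was at 455 and 490 FPKM against 0.863 and 0.830 FPKM, and Col5a2, which joins type I fibrils, at 312 and 306 FPKM against 0.616 and 0.399 FPKM. Col4a1, of the basement membrane network, was at 378 and 303 FPKM against 0.245 and 0.169 FPKM. All 4 thus had mean within-library percentiles of 98.4 or higher in AHSC and between percentiles 13.6 and 38.7 in BMDM. Col18a1, the source of endostatin, had like FPKM, with 8.01 and 8.62 FPKM in AHSC and 6.96 and 7.76 FPKM in BMDM. Its mean percentile was lower in AHSC, at 42.1 against 60.7. Summed over the list, collagen genes came to 3490 and 3573 FPKM in AHSC and 19.1 FPKM in each BMDM library.

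Most matrix glycoprotein genes, like the collagens, were higher in AHSC. All 38 listed were in both tables and kept, 29 were called higher in AHSC and 1 in BMDM, and the median difference was 4.64. Fn1 (fibronectin) was at 919 and 1050 FPKM in AHSC and 1.91 and 1.60 FPKM in BMDM. Sparc, a collagen-binding matricellular protein, was at 922 and 946 FPKM against 2.98 and 2.31 FPKM, and the proteoglycan gene Bgn (biglycan) at 946 and 939 FPKM against 1.36 and 1.53 FPKM. Fbln2 (fibulin 2) had the widest gap of the list, at 523 and 539 FPKM against 0.390 and 0.100 FPKM. The gene called higher in BMDM was Spp1 (osteopontin), a glycoprotein secreted by macrophages as well as mesenchymal cells. It was at 359 and 464 FPKM in AHSC and 4579 and 4672 FPKM in BMDM, 11.2-fold higher in BMDM by the means, and was not called on every scaling. Tgfbi and Lamc1 were not called. Tgfbi was at 5.68 and 6.66 FPKM in AHSC and 11.4 and 10.8 FPKM in BMDM, and the proteoglycan gene Vcan (versican), also without a call, at 6.49 and 5.87 FPKM against 10.4 and 10.6 FPKM.

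Enzymes that process the matrix were divided. Of 31 crosslinkers, proteases and inhibitors, all kept, 16 were called higher in AHSC and 1 in BMDM, with a median difference of 3.18. Loxl2 and Loxl1, lysyl oxidases that crosslink collagen, were at 184 FPKM in both AHSC libraries and at 69.4 and 75.3 FPKM, against under 0.5 FPKM in BMDM. Serpinh1, the collagen chaperone HSP47, was at 633 and 401 FPKM in AHSC, a wider spread than most genes, and at 1.33 and 1.58 FPKM in BMDM. Timp3 and Timp1, inhibitors of metalloproteinases, were called, Timp3 at 270 and 286 FPKM against 0.253 and 0.233 FPKM and Timp1 at 254 and 240 FPKM against 4.71 and 3.24 FPKM. The collagenase gene Mmp13 went the other way, with 33.4 and 35.6 FPKM in AHSC and 671 and 661 FPKM in BMDM, a 19.3-fold ratio. The macrophage elastase gene Mmp12 was at 901 and 881 FPKM in AHSC and 115 and 99.6 FPKM in BMDM, and its gap of 2.93 fell just short of a call. Thus a protease named for macrophages was more abundant in the stellate cultures and a collagenase more abundant in the macrophages.

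Stellate lineage genes beyond the myofibroblast programme were mixed. Of 24 listed, 21 were in both tables and 17 were kept, with 7 called higher in AHSC, 1 in BMDM and a median difference of 2.75. Lrat, the retinol esterifying enzyme of quiescent stellate cells, was listed only in the AHSC table at 1.70 and 2.29 FPKM, as were Hand1 and Wt1. Gfap, Ngfr, Vipr1 and Ntm were under 1 FPKM in both pairs. Des (desmin) was at 50.6 and 55.1 FPKM in AHSC, and at 0.011 FPKM and listed at 0 in BMDM. Pdgfrb and Pdgfra, the receptors for the stellate cell mitogen PDGF, were at 50.6 and 51.5 FPKM and at 20.2 and 19.4 FPKM in AHSC, against at most 0.355 FPKM in BMDM. Lhx2, a homeobox factor of the stellate lineage list, was higher in BMDM, at 52.7 and 51.5 FPKM against 3.09 and 2.91 FPKM in AHSC. Vim (vimentin) was abundant in both, at 1191 and 1178 FPKM in AHSC and 2921 and 2883 FPKM in BMDM. The summed level of this list, 1668 and 1664 FPKM in AHSC and 3033 and 2993 FPKM in BMDM, therefore followed Vim and not the lineage genes.

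TGF-β and PDGF signalling genes, the main fibrogenic pathways of stellate cells, numbered 32, all kept. Of these 17 were called higher in AHSC and none in BMDM, with a median difference of 3.19. The ligand genes differed among themselves: Tgfb1 was level, at 75.7 and 76.1 FPKM in AHSC and 79.9 and 83.8 FPKM in BMDM, while Tgfb3 was at 41.99 and 43.9 FPKM against 0.159 and 0.0536 FPKM. The receptor gene Tgfbr2 was at 51.7 and 52.9 FPKM in AHSC and 12.7 and 12.5 FPKM in BMDM, and was not called. Ltbp2, a latent TGF-β-binding family member of the matrix, was at 81.7 and 80.8 FPKM against 0.0907 and 0.145 FPKM. Tead1, the DNA-binding partner of YAP, was at 33.4 and 32.7 FPKM against 0.0236 and 0.0273 FPKM, and Ankrd1, a known YAP target, at 54.4 and 47.5 FPKM against 0.0796 and 0.0206 FPKM. Of the genes named here only Tgfb1 was level, and the others were higher in AHSC.

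**Figure D3:**
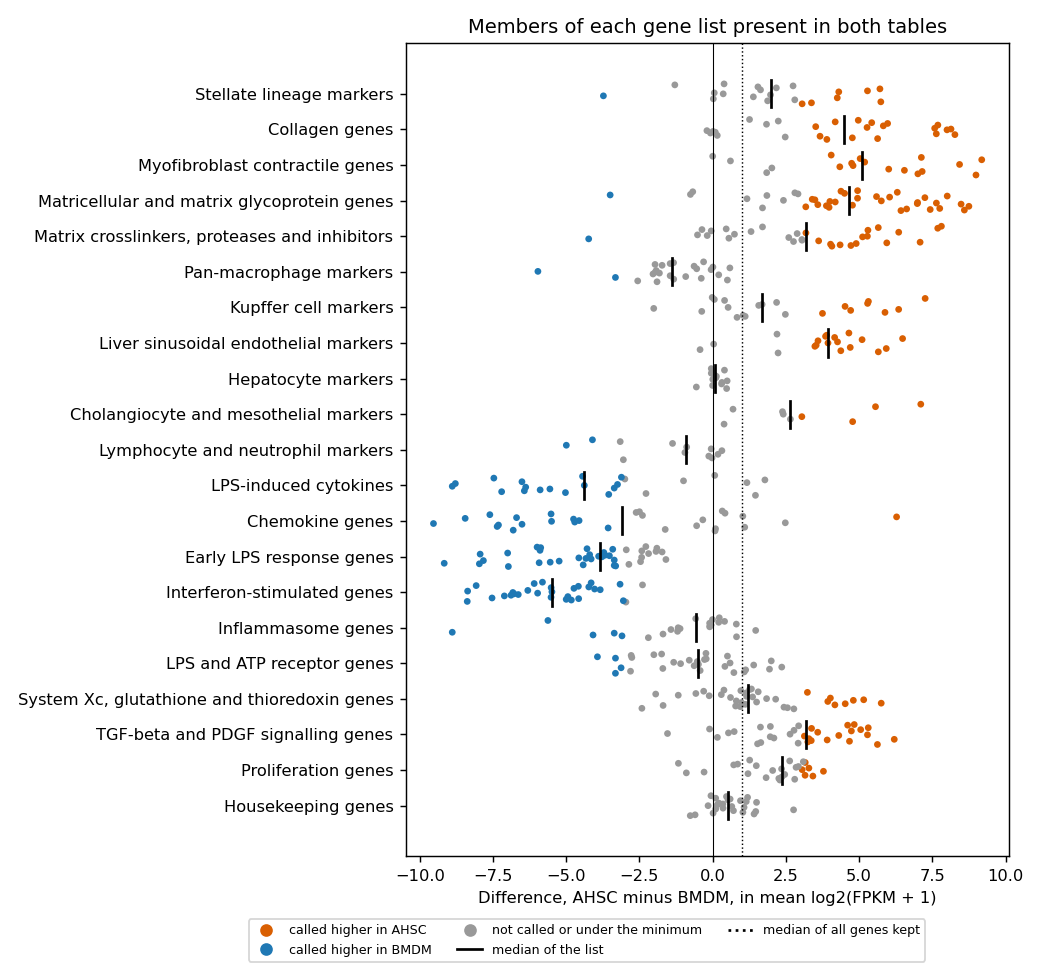
Difference in mean log2(FPKM + 1), AHSC minus BMDM, of each member present in both tables, by gene list, with called members in orange (AHSC) and blue (BMDM). Black bars mark list medians over these members and the dotted line the median of all genes kept, 1.01. Matrix, contractile and endothelial lists lie to the right, cytokine, chemokine, LPS response and interferon lists to the left, and housekeeping genes near 0.

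Macrophage genes were abundant in the stellate cultures as well as in the macrophages. All 24 pan-macrophage markers were kept, none was called higher in AHSC and 2 were called higher in BMDM, with a median difference of -1.39. Their summed level was 13296 and 13603 FPKM in AHSC and 20855 and 20451 FPKM in BMDM, and their median percentile within a library was 97.6 in AHSC and 98.7 in BMDM. Csf1r, the M-CSF receptor, was at 188 and 194 FPKM in AHSC and 163 and 168 FPKM in BMDM. Adgre1, the F4/80 antigen used to sort mouse macrophages, was at 106 and 111 FPKM in AHSC and 400 and 418 FPKM in BMDM. Lgals3 (galectin 3) was at 1672 and 1712 FPKM against 2528 and 2409 FPKM, and Ctss (cathepsin S) at 678 and 695 FPKM against 2921 and 2721 FPKM. None of these 4 was called. The 2 called genes were the high-affinity IgG receptor gene Fcgr1, at 4.34 and 4.40 FPKM in AHSC and 338 and 331 FPKM in BMDM, and the LPS co-receptor gene Cd14, at 46.3 and 46.2 FPKM against 465 and 477 FPKM. In bulk libraries, fewer cells of a type and less RNA per cell cannot be told apart, and the part of macrophages in the other AHSC values was not tested.

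Several Kupffer cell genes were higher in the stellate cultures than in the marrow-derived macrophages. Of the 22 listed, C6 was only in the AHSC table, 21 were in both and 17 were kept, with 8 called higher in AHSC, none in BMDM and a median difference of 2.48. Vsig4, a complement receptor of resident macrophages, was at 251 and 261 FPKM in AHSC and 0.748 and 0.617 FPKM in BMDM. Clec4f, a lectin that in mice marks Kupffer cells, was at 58.6 and 59.2 FPKM in AHSC, and at 0.028 FPKM and listed at 0 in BMDM. Id3, a transcription regulator of Kupffer cell identity, was at 261 and 249 FPKM against 2.20 and 2.08 FPKM, and the iron exporter gene Slc40a1 at 124 and 118 FPKM against 1.95 and 2.18 FPKM. All 4 were above 50 FPKM in AHSC. In BMDM auranofin replicate 1 Slc40a1 reached 58.6 FPKM and Id3 11.2 FPKM, so neither is read as particular to Kupffer cells. Vsig4 was at 0.870 FPKM there and Clec4f was listed at 0. Timd4, Kcna2, Xcr1 and Adrb1 were under the minimum. Folr2 and Il18bp were higher in BMDM without a call. Folr2 was at 171 and 184 FPKM in AHSC and 229 and 232 FPKM in BMDM, and Il18bp at 30.0 and 28.8 FPKM against 124 and 119 FPKM. The AHSC libraries lay above in 15 of the 17 kept, beside 78.8% of all genes kept. The list summed to 2993 and 2971 FPKM in AHSC and 525 and 520 FPKM in BMDM.

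Sinusoidal endothelial genes were likewise in the AHSC libraries. Of 20 listed, Fcn3 was in neither table, Dnase1l3 was under the minimum and 18 were kept, with 15 called higher in AHSC, none in BMDM and a median difference of 4.05. Cdh5 (VE-cadherin) was at 71.8 and 68.0 FPKM in AHSC and 0.403 and 0.409 FPKM in BMDM. Plvap, of endothelial fenestrae, was at 90.9 and 89.4 FPKM in AHSC, and listed at 0 and at 0.036 FPKM in BMDM. Pecam1 (CD31) was at 46.9 and 43.4 FPKM against 0.351 and 0.334 FPKM. Kdr (VEGF receptor 2) had like FPKM in the cell types, with 12.1 and 12.8 FPKM in AHSC and 12.3 and 12.04 FPKM in BMDM. The mean within-library percentile of Kdr was lower in AHSC, at 54.9 against 70.0. The list summed to 536 and 520 FPKM in AHSC, well under the Kupffer sum, and to 19.5 and 19.3 FPKM in BMDM.

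Other liver and blood cells left unequal marks. Of 11 cholangiocyte and mesothelial markers 9 were in both tables and 7 kept, with 4 called higher in AHSC and none in BMDM. Upk3b, a uroplakin of mesothelium, was at 132 and 160 FPKM in AHSC and 0.0639 and 0.0602 FPKM in BMDM. Upk1b was at 43.3 and 49.2 FPKM and Krt19 at 7.398 and 7.11 FPKM in AHSC, and both were listed at 0 in the BMDM libraries. The mesothelial Wt1 and Msln were only in the AHSC table, at 22.1 and 24.4 FPKM and at 3.13 and 2.96 FPKM, and Epcam was under 1 FPKM. Hepatocyte markers were at or near 0: of 20 listed, 14 were in both tables and only Trf and Alb reached the minimum. Alb (albumin) was at 0.455 and 1.22 FPKM in AHSC and 0.711 and 3.09 FPKM in BMDM, and the summed level of the list, 120 and 126 FPKM in AHSC and 90.0 and 96.3 FPKM in BMDM, was nearly all Trf (transferrin), at 117 and 121 FPKM in AHSC. Lymphocyte and neutrophil markers summed to 19.7 and 7.72 FPKM in AHSC and 203 and 211 FPKM in BMDM. Of 20 listed, 5 were kept and 2 called higher in BMDM. These 2 were the neutrophil granule gene Ngp, at 32.0 and 30.7 FPKM in BMDM, and S100a9, at 10.8 and 2.23 FPKM in AHSC and 103 and 108 FPKM in BMDM. The part of these cells in the AHSC differences was not tested.

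**Figure D4:**
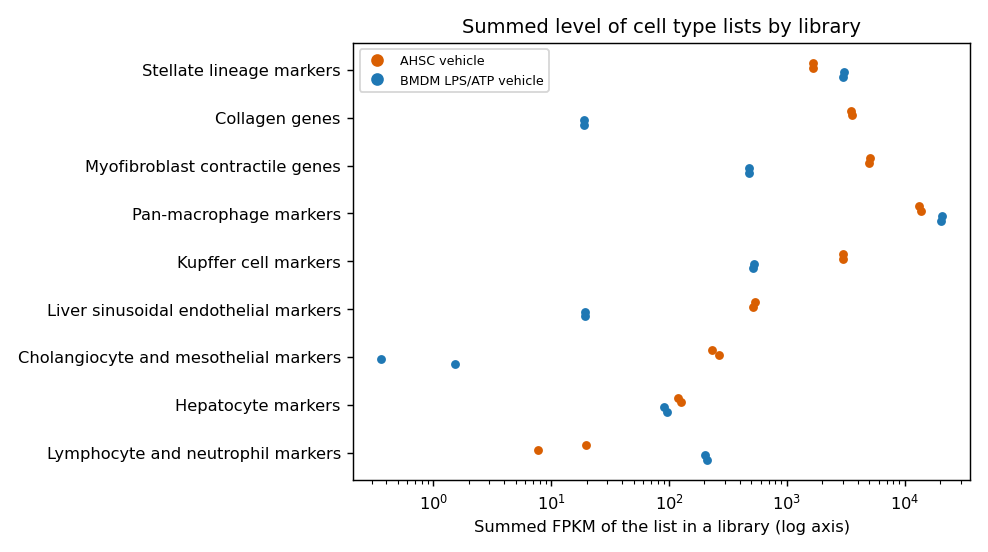
Summed FPKM of 9 cell type lists in each vehicle library, on a log axis, with AHSC in orange and BMDM LPS/ATP in blue. Pan-macrophage genes sum to between 13296 and 20855 FPKM, while collagen, contractile, Kupffer, endothelial and mesothelial lists sum higher in AHSC.

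Chemokine genes included the most abundant inflammatory transcripts of the macrophages. Of 30 listed, 28 were in both tables and 23 kept, with 14 called higher in BMDM, 1 in AHSC and a median difference of -4.71. Cxcl13 and Xcl1 were only in the AHSC table. Ccl5 (RANTES) was at 9.01 and 7.29 FPKM in AHSC and 6802 and 6686 FPKM in BMDM, the widest gap of all genes in this direction. Cxcl10, a chemokine induced by interferons and NF-κB, was at 13.9 and 12.8 FPKM in AHSC and 4967 and 5037 FPKM in BMDM. Ccl3 was at 67.4 and 54.4 FPKM against 9908 and 9673 FPKM. Ccl4, whose annotated range overlaps that of Ccl3 so that reads could be split between them, was at 62.6 and 53.4 FPKM against 5412 and 5299 FPKM. Together these 4 chemokines stood among the 10 most abundant genes of BMDM. Ccl6, which macrophages make without stimulation, was not called and was higher in AHSC, at 1081 and 1027 FPKM against 187 and 189 FPKM. Cxcl12, the stromal ligand of CXCR4, was the member called higher in AHSC, at 87.5 and 86.6 FPKM against 0.0981 and 0.170 FPKM.

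LPS-induced cytokines followed the same direction. Of 24 listed, Il12a was only in the BMDM table at 4.94 and 5.40 FPKM, Tslp was under the minimum and 22 were kept, with 16 called higher in BMDM, none in AHSC and a median difference of -4.41. Tnf was at 11.0 and 10.05 FPKM in AHSC and 2087 and 2001 FPKM in BMDM, a 194-fold ratio. Il27 was at 0.879 and 0.765 FPKM against 784 and 821 FPKM, and Il6 at 3.68 and 3.44 FPKM against 414 and 417 FPKM. Ifnb1, the interferon-β gene, was at 159 and 152 FPKM in BMDM, and at 0.121 FPKM and listed at 0 in AHSC. The AHSC libraries lay above in 3 members, none of them called. Csf1, which encodes M-CSF, was at 219 and 208 FPKM in AHSC and 76.6 and 77.1 FPKM in BMDM. Lif, an interleukin-6 family cytokine, was at 3.40 and 3.46 FPKM against 0.289 and 0.287 FPKM, and the alarmin gene Il33 at 1.89 and 1.80 FPKM against 0.253 and 0.276 FPKM.

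Early LPS response genes were all higher in BMDM. Of 38 listed, all kept, 27 were called higher in BMDM and none in AHSC, beside 2.48% and 6.48% of all genes kept. The BMDM libraries lay above the AHSC libraries in all 38, beside 18.6% of all genes kept. The median difference was -3.84. Nos2, the inducible nitric oxide synthase, was at 0.247 and 0.188 FPKM in AHSC and 295 and 300 FPKM in BMDM. Ptgs2 (cyclooxygenase 2) was at 7.31 and 6.21 FPKM against 950 and 1031 FPKM. Cd69, an early activation antigen, was at 0.355 and 0.223 FPKM against 736 and 740 FPKM, and Cd40, a co-stimulatory receptor, at 4.39 and 4.04 FPKM against 1303 and 1300 FPKM. Sod2, Saa3 and Ehd1 were higher in BMDM without a call, as in Sod2 with 22.5 and 20.7 FPKM against 174 and 173 FPKM.

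Interferon-stimulated genes gave the most uniform list. All 30 were kept, with 28 called higher in BMDM and none in AHSC, beside 2.48% and 6.48% of all genes kept. The BMDM libraries lay above in all 30, beside 18.6% of all genes kept, and the median difference was -5.50. Rsad2 (viperin) was at 10.2 and 9.80 FPKM in AHSC and 3025 and 2918 FPKM in BMDM, a 296-fold ratio. Its neighbour Cmpk2 was at 4.02 and 4.198 FPKM against 1690 and 1711 FPKM. Mx1, an antiviral GTPase, was at 1.15 and 0.790 FPKM against 660 and 633 FPKM, and Ifit1 at 6.18 and 6.78 FPKM against 1042 and 1023 FPKM. Members of the Ifit, Oas and Gbp families are similar in sequence, so single values could carry shared reads. Bst2 (tetherin) was higher in BMDM without a call, at 157 and 173 FPKM in AHSC and 1312 and 1275 FPKM in BMDM.

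The promoters of Cxcl10 and Rsad2 are shown because they had the widest gaps among genes higher in BMDM whose windows held a kappa-B site, the element bound by NF-κB, or the core of an interferon-stimulated response element (ISRE, GAAA repeated after 2 bases of any kind). Capitals mark these matches in RefSeq sequence (GRCm38.p6, minus strand), at chr5:92348890-92349139 for Cxcl10 and chr12:26456453-26456702 for Rsad2.
Cxcl10 promoter: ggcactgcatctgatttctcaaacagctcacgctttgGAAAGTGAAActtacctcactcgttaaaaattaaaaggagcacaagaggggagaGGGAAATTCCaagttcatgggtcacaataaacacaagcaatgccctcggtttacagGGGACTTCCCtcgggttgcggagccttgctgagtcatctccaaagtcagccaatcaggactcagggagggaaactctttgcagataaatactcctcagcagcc
Rsad2 promoter: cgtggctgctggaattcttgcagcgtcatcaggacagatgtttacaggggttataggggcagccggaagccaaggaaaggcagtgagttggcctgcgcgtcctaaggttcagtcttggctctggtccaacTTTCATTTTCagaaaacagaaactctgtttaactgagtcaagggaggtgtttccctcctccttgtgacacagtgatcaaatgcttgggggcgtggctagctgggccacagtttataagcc
In Cxcl10 the ISRE core began 213 bases before the transcript start, and the kappa-B sites 159 and 103 bases before it. In Rsad2 the ISRE core, read on the opposite strand, began 120 bases before the start. An ISRE core was in 11 of the 22 interferon-stimulated genes with a RefSeq promoter, and a kappa-B site in 11 of the 29 early LPS response genes. Over windows, an ISRE core was in 19.0% of those of genes higher in BMDM, 2.70% of those of genes higher in AHSC and 2.98% of all promoters. A kappa-B site was in 13.6%, 4.89% and 3.90%, respectively, and 3 windows of genes higher in BMDM held both elements. Over the windows of all genes kept, the ISRE core was in 2.85%, the kappa-B site in 4.63% and the PU.1 core below in 11.1%. The shares of genes higher in AHSC lay near these. The core of the PU.1 site (GAGGAAG, either strand), a factor of all macrophages, differed less, at 13.9% for genes higher in BMDM, 12.2% for genes higher in AHSC and 10.6% of all promoters.

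Inflammasome genes differed member by member. Of 23 listed, 19 were kept, 5 were called higher in BMDM and none in AHSC, and the median difference was -1.18. The sensor gene Nlrp3 was at 3.48 and 3.37 FPKM in AHSC and 215 and 220 FPKM in BMDM, a 63.5-fold ratio. The protease genes Casp1 and Casp4 were at 26.1 and 24.1 FPKM and at 12.4 and 12.95 FPKM in AHSC, and at 222 FPKM in both libraries and at 235 and 228 FPKM in BMDM. Casp1 passed the gap of 3 by 0.04 and was not called on every scaling. The substrate genes Il1b and Il18 were also called, with Il18 at 10.5 and 10.9 FPKM in AHSC and 124 and 116 FPKM in BMDM. The adaptor and the pore did not pass: Pycard (ASC) was at 8.31 and 8.47 FPKM in AHSC and 12.2 and 13.9 FPKM in BMDM, and Gsdmd at 24.6 and 23.7 FPKM against 80.8 and 80.1 FPKM. Txnip, which binds thioredoxin, and Ninj1, which ruptures the plasma membrane after gasdermin pores, were level, Ninj1 at 127 and 129 FPKM in AHSC and 130 and 137 FPKM in BMDM. Nlrp1a, Naip7, Nlrp12 and Nlrp6 were under the minimum in both. The sensor and the substrates thus separated the cell types by far more than the adaptor.

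Genes for the receptors of LPS and ATP varied less than those of their response. Of 30 listed, 29 were kept, P2rx1 was under the minimum, 4 were called higher in BMDM and none in AHSC, and the median difference was -0.53. The called genes were Cd14, given above, Tlr3, at 3.55 and 3.63 FPKM in AHSC and 68.3 and 70.1 FPKM in BMDM, Tlr1, and the adaptor gene Myd88, at 22.5 and 23.0 FPKM against 205 and 207 FPKM. Tlr4 itself was at 13.5 and 12.7 FPKM in AHSC and 9.05 and 8.82 FPKM in BMDM. P2rx7, the ATP-gated channel upstream of NLRP3, was at 12.6 and 12.8 FPKM in AHSC and 4.17 and 4.22 FPKM in BMDM, and P2rx4 at 72.0 and 75.0 FPKM against 116 and 113 FPKM. None of these last 3 was called. The AHSC libraries also held macrophage transcripts, and which cells of the cultures gave those of Tlr4 and P2rx7 was not tested.

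System Xc imports cystine for glutathione synthesis and consists of the transporter xCT (Slc7a11) and the heavy chain 4F2hc (Slc3a2), with CD44 as a stabilizing partner. Of 36 genes of system Xc, glutathione and thioredoxin, 34 were kept and Ggt1 and Ggt5 were under the minimum. Of the 34, 8 were called higher in AHSC, a larger share than the 6.48% of all genes kept, and none in BMDM. On every scaling 5 of the 8 stood. The median difference was 1.29, close to the 1.01 of all genes kept. Slc7a11 was at 2.37 and 1.77 FPKM in AHSC and 3.48 and 3.60 FPKM in BMDM, without a call. Its mean within-library percentile was 11.4 in AHSC and 46.3 in BMDM. Slc3a2 was at 63.4 and 86.7 FPKM in AHSC and 337 and 246 FPKM in BMDM, and Cd44 at 47.5 and 46.7 FPKM against 253 and 258 FPKM. The partners of xCT were therefore more abundant in BMDM without passing the gap. Txnrd1, the cytosolic thioredoxin reductase, was at 123 and 114 FPKM in AHSC and 89.2 and 91.9 FPKM in BMDM, a difference of 0.39 that turned to -0.63 after centring on the median of all genes. Txnrd2, the mitochondrial reductase, was at 8.72 and 9.09 FPKM against 2.88 and 3.39 FPKM. Within a library both had like ranks in the cell types, at mean percentiles of 95.6 and 93.4 for Txnrd1 and 44.2 and 44.1 for Txnrd2. These are RNA levels, whereas the study's report that both cell types lack thioredoxin reductase rests on protein. The called members included the glutathione peroxidase family genes Gpx8, Gpx7 and Gpx3 and the glutathione transferase genes Gstp1 and Gstm2. Gpx8 was at 56.0 and 50.2 FPKM in AHSC and listed at 0 in BMDM. Gstp1 was at 105 and 101 FPKM against 1.73 and 2.11 FPKM, and could share reads with its neighbour Gstp2. Gpx1, the abundant cytosolic glutathione peroxidase, went the other way without a call, at 39.6 and 38.5 FPKM in AHSC and 133 and 124 FPKM in BMDM. In the auranofin libraries Gpx1 was at 31.8 and 121 FPKM in AHSC and 42.1 and 32.6 FPKM in BMDM. Its direction in the vehicle libraries is therefore not read as a trait of the cell types.

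**Figure D5:**
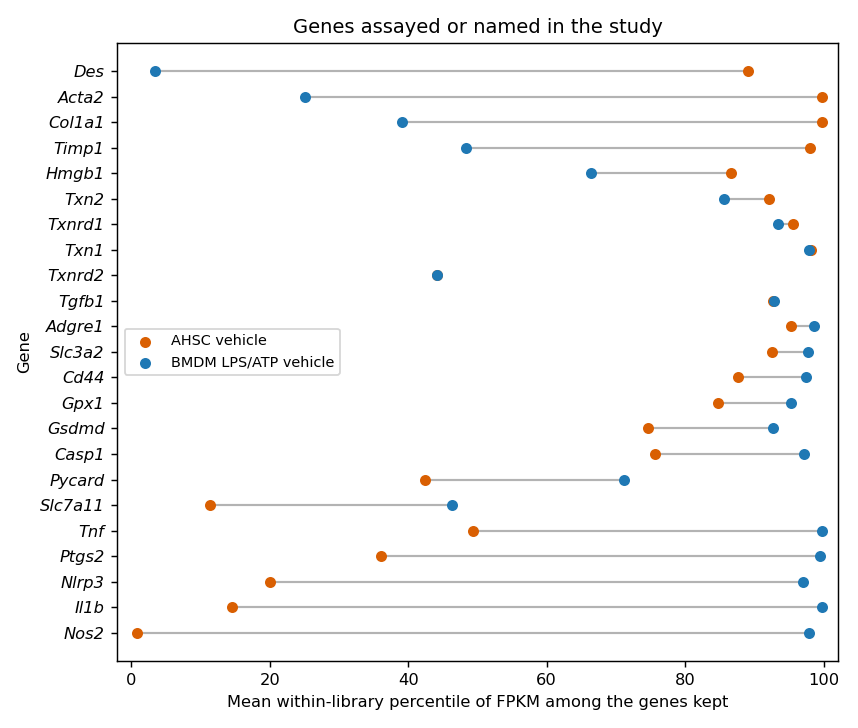
Mean within-library percentile of FPKM, among the genes kept, of 23 genes that the study assayed by other means or named, with AHSC in orange and BMDM LPS/ATP in blue. Acta2, Des and Col1a1 rank far higher in AHSC, Nos2, Il1b and Nlrp3 far higher in BMDM, and Txnrd1, Txnrd2, Txn1 and Tgfb1 rank alike.

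Of 24 genes that the study assayed by other means or, as Gpx1 and Slc3a2, named, 4 were called higher in AHSC (Acta2, Col1a1, Timp1 and Des) and 6 in BMDM (Nos2, Ptgs2, Nlrp3, Casp1, Il1b and Tnf). Ranks within a library, which no scale between tables can move, kept this order. The mean percentile of Nos2 was 0.9 in AHSC and 97.8 in BMDM, that of Nlrp3 was 20.03 and 97.0, and that of Des was 89.1 and 3.4. Hmgb1, a nuclear protein released by dying cells, was at 46.1 and 42.2 FPKM in AHSC and 10.1 and 9.75 FPKM in BMDM, and was not called.

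All 26 proliferation genes listed were kept, and 6 were called higher in AHSC and none in BMDM. Their median difference was 2.36 beside 1.01 over all genes kept, and 0 of the 6 were called on every scaling. The AHSC libraries lay above in 23 of the 26, a share near the 78.8% of all genes. Cdc20, an activator of the anaphase-promoting complex, was at 22.7 and 22.9 FPKM in AHSC and 0.527 and 0.964 FPKM in BMDM. Ccna2 (cyclin A2) was at 17.5 and 16.1 FPKM against 0.680 and 0.640 FPKM. Pcna, the replication clamp, was not called and was higher in BMDM, at 119 and 116 FPKM against 267 and 266 FPKM. None of 25 housekeeping genes was called, and their median difference was 0.52.

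Ferritin and cathepsin D genes were among the 10 most abundant of both cell types, while chemokine genes were so in BMDM. Fth1, the ferritin heavy chain, was at 9033 and 9183 FPKM in AHSC and 13243 and 12779 FPKM in BMDM, first in each pair. Ctsd (cathepsin D) was at 8699 and 9152 FPKM against 5683 and 5627 FPKM, and Ftl1 (ferritin light chain) at 6512 and 6321 FPKM against 5377 and 5522 FPKM. The 10 most abundant genes held 10.9% of the summed FPKM in AHSC and 13.9% in BMDM. In AHSC the 10 included Lyz2, Psap and Ctsb, while in BMDM they included Ccl3, Ccl4, Ccl5 and Cxcl10, and B2m, at 5818 and 5731 FPKM against 1072 and 1062 FPKM in AHSC.

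The same rule was applied to the auranofin libraries of the same tables, although dose and time differed. AHSC had 0.03 µM for 12 h. BMDM had 0.1 µM by the labels for 1 h, while the study's legend for this comparison gives a higher dose. Most of these libraries lay close to vehicle, as given below. Genes chosen for a gap of 3 could therefore hardly fail to keep the pairs apart, and the repeats carry no test. In the auranofin libraries 653 genes (5.32%) were higher in AHSC and 216 (1.76%) in BMDM. Of the 795 genes higher in vehicle AHSC, 634 (79.7%) were called again and all 795 kept the pairs apart. Of the 304 higher in vehicle BMDM, 211 (69.4%) were called again and 302 kept the pairs apart, with Gm14085 and Gm7030 as the exceptions, named after their values were seen. The BMDM auranofin libraries differed from each other, and replicate 2 lay close to the vehicle libraries. Txnrd1 was at 582 FPKM in replicate 1 and 85.3 FPKM in replicate 2, beside 89.2 and 91.9 FPKM with vehicle, and Slc7a11 was at 59.0 and 2.87 FPKM, beside 3.48 and 3.60 FPKM. At least 1 log2 unit from the BMDM vehicle mean were 749 of the 12271 genes in replicate 1 and 20 in replicate 2, and in AHSC 43 and 46 genes were as far from their own vehicle mean. Without BMDM auranofin replicate 1 the counts were 806 and 319 genes, and 745 AHSC calls (93.7%) and 296 BMDM calls (97.4%) were made again, by a library that hardly differed from vehicle. Without replicate 2 the repeated calls numbered 639 (80.4%) and 211 (69.4%). In these libraries Acta2 was at 743 and 737 FPKM in AHSC and 1.01 and 1.10 FPKM in BMDM, and Il1b at 1.05 and 1.67 FPKM against 796 and 1739 FPKM. Kupffer genes were again in AHSC, with Clec4f at 73.5 and 69.1 FPKM and listed at 0 in both BMDM libraries.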

How the data were processed

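RNA of the 4 vehicle libraries was compared. The authors deposited FPKM values per gene and library in 1 table for each cell type, made on mm10 with RefSeq transcripts. Per the labels, a stranded mRNA kit was used, and the submitters' processing notes name FastQC 0.11.7, Trimmomatic 0.38, HISAT2 2.1.0 and StringTie 1.3.4d. The tables hold no counts, and FPKM was used as deposited, as log2(FPKM + 1). Each table is its own scale, so no p-value was computed across tables (2 libraries against 2 could not go under 0.333 in an exact permutation test). At 0 in all libraries are 588 genes of the BMDM table and none of the AHSC table, so absence of a gene from a table reflects a filter not given in the sources used here. Depth was estimated from steps of 1 fragment in genes under 0.2 FPKM and covers counting error only. Members, lists and thresholds were chosen with earlier results of these data known. Genes named were the 5 markers, the 10 widest gaps each way, the 10 most abundant in each pair, up to 5 called each way and 3 not called of each list, and genes the study assayed or named. Other genes with values were named after those were seen: Csf1r, Lif, Il33, Vcan, Tlr4, P2rx7, Lyz1, the genes found in 1 table, and those of the closing section. The ISRE core was added after seeing the data. The call rule was checked on made-up values of known size. Coordinates are RefSeq's for the same build, found for 12256 of the 12271 genes. Python 3.11.15, numpy 2.4.6, pandas 2.3.3 and matplotlib 3.10.9 were used. Some listed genes are counted but not reported here by name.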

Additional observations from a re-analysis of the deposited data

How the results depend on the processing

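No paired analysis was possible because the results come from no test and the replicate numbers of the cell types name unrelated cultures. The counts of genes higher in AHSC and in BMDM, 795 and 304 as reported, moved with the scale, the pseudocount and the gap. Genes higher in AHSC numbered 2209 with a pseudocount of 0.1, 1414 with libraries scaled to a common total, 1417 with that total taken without the 50 highest genes, 335 after centring on the median of all genes, 511 after centring on housekeeping genes, 414 after quantile normalization, 397 by a gap of 50 percentile points within libraries, 2042 with a gap of 2 and 342 with a gap of 4. Genes higher in BMDM numbered 553 after centring on the median, 548 with a gap of 2 and 160 with a gap of 4. Leaving out each library in turn gave 819 to 831 and 307 to 316 genes. Because the rule uses the nearest libraries, leaving 1 out can only keep or raise the counts, so this is no check of them. The median of the hepatocyte list, -0.08 over its 2 members kept, turned to 0.081 without the filter, 0.40 with a minimum of 5 FPKM, 0.53 and 0.44 on the scalings to a total, and ranged from -0.40 to 0.42 with 1 library left out. The median of the housekeeping list, 0.52, became -0.49 after centring on all genes and 0.0 on itself. No other list median changed sign. FPKM under 1 rest on few fragments and the ratios of such genes are not reliable.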

Other observations

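Most called genes lay outside the lists: 655 of the 795 higher in AHSC and 206 of the 304 higher in BMDM. Those named here are among the widest gaps outside the lists and were chosen after their values were seen. On the AHSC side several were further matrix and secretory pathway genes. Tinagl1, a matrix protein, was at 201 and 198 FPKM in AHSC and 0.0959 and 0.0347 FPKM in BMDM. Fkbp10, a collagen prolyl isomerase of the endoplasmic reticulum, was at 105 and 103 FPKM against 0.372 and 0.157 FPKM, and Prelp, a small leucine-rich proteoglycan, at 103 and 112 FPKM against 0.0450 FPKM and listed at 0. Serpinf1, the secreted pigment epithelium-derived factor, was at 226 and 211 FPKM against 0.360 and 0.461 FPKM. Lrrc32, which anchors latent TGF-β at the cell surface, was at 98.7 and 93.9 FPKM against 0.162 and 0.190 FPKM. Cryab, a small heat shock protein, was at 228 and 212 FPKM against 0.181 and 0.187 FPKM. Ptgis, the prostacyclin synthase, was at 68.0 and 74.4 FPKM in AHSC and listed at 0 in BMDM.

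On the BMDM side the genes outside the lists included immune checkpoint and feedback genes. Cd274 (PD-L1) was at 13.1 and 12.3 FPKM in AHSC and 998 and 970 FPKM in BMDM. Tnfsf4 (OX40 ligand) was at 128 and 139 FPKM in BMDM, and at 0.0957 FPKM and listed at 0 in AHSC. Socs1, a feedback inhibitor of JAK signalling, was at 1.06 and 1.13 FPKM against 137 and 133 FPKM, and Il15ra at 2.13 and 1.93 FPKM against 198 and 188 FPKM. The interferon-inducible GTPase gene Iigp1 was at 2.74 and 2.76 FPKM against 226 and 218 FPKM. The related genes Slfn4 and Slfn1 were at 260 and 248 FPKM and at 118 and 116 FPKM in BMDM, under 1 FPKM in AHSC, and could share reads with each other.

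Of the genes found in 1 table only, 156 of the AHSC table and 10 of the BMDM table reached 1 FPKM in the vehicle libraries. In the AHSC table Cyp4b1, a cytochrome P450, was at 49.7 and 49.1 FPKM, and Gpihbp1, the endothelial anchor of lipoprotein lipase, at 18.7 and 21.1 FPKM. In the BMDM table Pydc3, a pyrin domain gene with close relatives, was at 150.3 and 149.7 FPKM.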
